A study of Aspergillus niger with 11 samples.

Results

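The genes described here encode the enzymes with which Aspergillus niger breaks down starch, together with the regulator that switches them on. They were chosen by gene identifier and not by a cut on their values, though earlier results of these data were known. They comprise 7 of the 10445 genes in the deposited tables: glaA (An03g06550, glucoamylase), both genes listed as amyA (An12g06930 and An05g02100, alpha-amylase), aamA (An11g03340, acid alpha-amylase), agdA (An04g06920, alpha-glucosidase), agdB (An01g10930, alpha-glucosidase) and amyR (An04g06910, the activator). The RefSeq gene table gives agdA the symbol aglU and gives no symbol to An11g03340 and An01g10930, for which the names in common use are kept. Both amyA genes were listed with identical values in every library and are counted once, which leaves 6 members.

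Starch is a chain of glucose units that fungi digest outside the cell. Alpha-amylases cut inside the chain, glucoamylase releases glucose from its ends, and alpha-glucosidases split maltose and other short products. AmyR is a zinc-cluster transcription factor that activates the genes of these enzymes when maltose or related sugars are present. In A. niger, glucoamylase is a main secreted product of industrial fermentations.

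RNA was sequenced from strain DS03043, known from published work as a glucoamylase producer, in a fed-batch fermentation under oxygen limitation. All 11 libraries share the strain, a 5 L fermenter stirred at 375 rpm, aeration at 1 vvm, an overpressure of 0.05 MPa, 34 °C and pH 4.5. Libraries came from the exponential phase (18 h, n = 3), the transitional or early oxygen-limited stage (24 h, n = 3), the middle oxygen-limited phase (42 h, n = 3) and the late oxygen-limited phase (66 h, n = 2). The labels list the times for the whole series, and each was assigned to its phase by the order of time. Oxygen limitation, culture age and growth phase moved together and cannot be told apart. Neither the carbon source of the feed nor the number of glaA copies in the strain is stated by the labels, so a level of glaA is not a level per gene copy. The labels do not say whether replicates are separate cultures, and the p-values therefore measure only the spread between libraries, which may be technical. Levels are FPKM (fragments mapped per kilobase of transcript, scaled to the mapped total of the library), which can be set side by side between genes.

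The libraries were shallow. The FPKM worth of 1 read, recovered from the spacing of the values, showed relative depths of 1.00 to 1.59, with both 66 h libraries the deepest, and 5399 to 5959 genes were listed above 0 per library. The spacing was found for all members but glaA, with values within 0.049 of a whole number of reads. The step of an amyA copy was 0.507 of that of aamA, although the amyA gene is 1.034 times as long in the RefSeq table. A read that fits both copies was thus shared out between them, and the copies cannot be told apart. Over the 11 libraries, 2649 reads lay behind both amyA copies together, 443 behind aamA, 170 behind agdA, 32 behind agdB and 6 behind amyR.

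**Figure D1:**
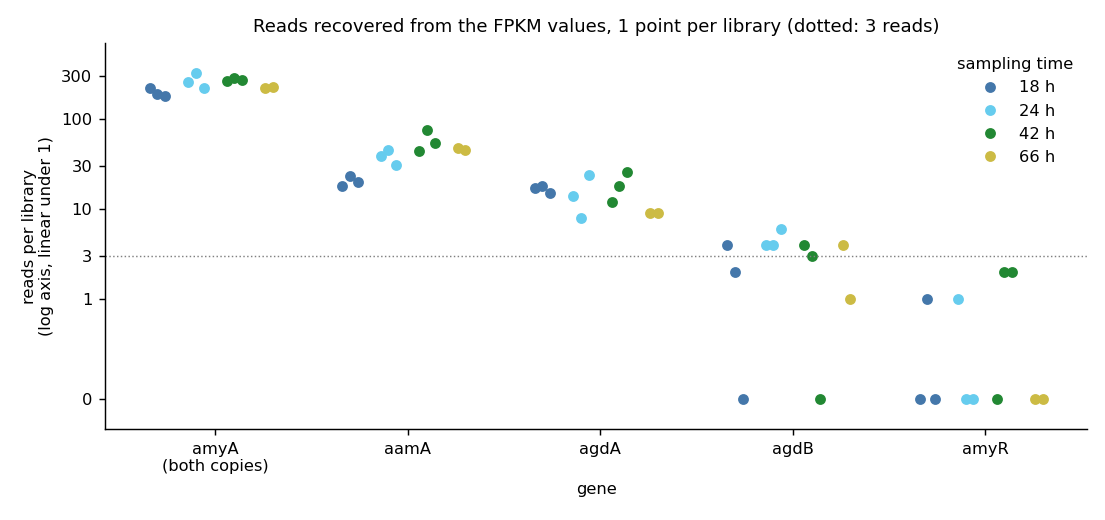
Reads per library recovered from the FPKM values (vertical axis, logarithmic and linear under 1) for 5 of the 6 members, with 1 point per library and a colour per sampling time. The amyA points lie between 178 and 323 reads, those of agdA between 8 and 26, and no amyR point exceeds 2, below the dotted line at 3 reads.

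Among the members, glaA had the highest level at every time. It stood at 2187, 2089 and 2325 FPKM in the 3 libraries of 18 h, at 4226, 4076 and 3607 FPKM at 24 h, at 5013, 4073 and 5427 FPKM at 42 h, and at 3099 and 3259.8 FPKM at 66 h. The 18 h libraries were the lowest and did not overlap with those of any later time. By mean level, glaA was the gene of rank 78 of 10445 at 18 h, rank 31 at 24 h, rank 22 at 42 h and rank 35 at 66 h. The mean was 3969.9 ± 323 FPKM at 24 h, against 2200.4 ± 119 FPKM at 18 h (SD, n = 3 each), with a limma log2 fold change of 0.85, SE 0.12 and adjusted p = 0.00503. It was 4838 ± 694 FPKM at 42 h, with a limma log2 fold change over 18 h of 1.13, SE 0.12 and adjusted p = 0.000295. Without a variance trend, glaA was called neither at 24 h (adjusted p = 0.504) nor at 42 h (0.182), and with only the libraries of both groups it was not called at 24 h (0.0953).

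At 66 h the glaA mean was 3179 ± 114 FPKM (n = 2), with a limma log2 fold change over 18 h of 0.53, SE 0.13 and adjusted p = 0.0359. It missed the threshold in 11 of 22 alternative settings. Among them were 7 that left out a library, namely any of the 18 h libraries, the second of 24 h, the first of 42 h, or 1 of those of 66 h (adjusted p 0.0539 to 0.207). In FPKM without scaling between libraries, both 66 h libraries lay below all 42 h libraries and below all 24 h libraries. Neither difference passed the test (66 h against 42 h, log2 fold change -0.60, SE 0.13, adjusted p = 0.104; 66 h against 24 h, -0.32, SE 0.13, adjusted p = 0.215; limma with Benjamini-Hochberg adjustment). Without 42 h replicate 2, the lowest glaA library of that time, the fall at 66 h against 42 h was called (adjusted p = 0.0266). In bulk RNA, fewer cells of a type and less RNA per cell cannot be told apart. In ascending order of the mean, glaA stood at 18 h, 66 h, 24 h and 42 h, and neither 24 h and 66 h nor 42 h and 24 h differed in the test (42 h against 24 h, log2 fold change 0.28, SE 0.12, adjusted p = 0.243). With quantile normalization 42 h was called above 24 h (adjusted p = 0.0212).

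**Figure D2:**
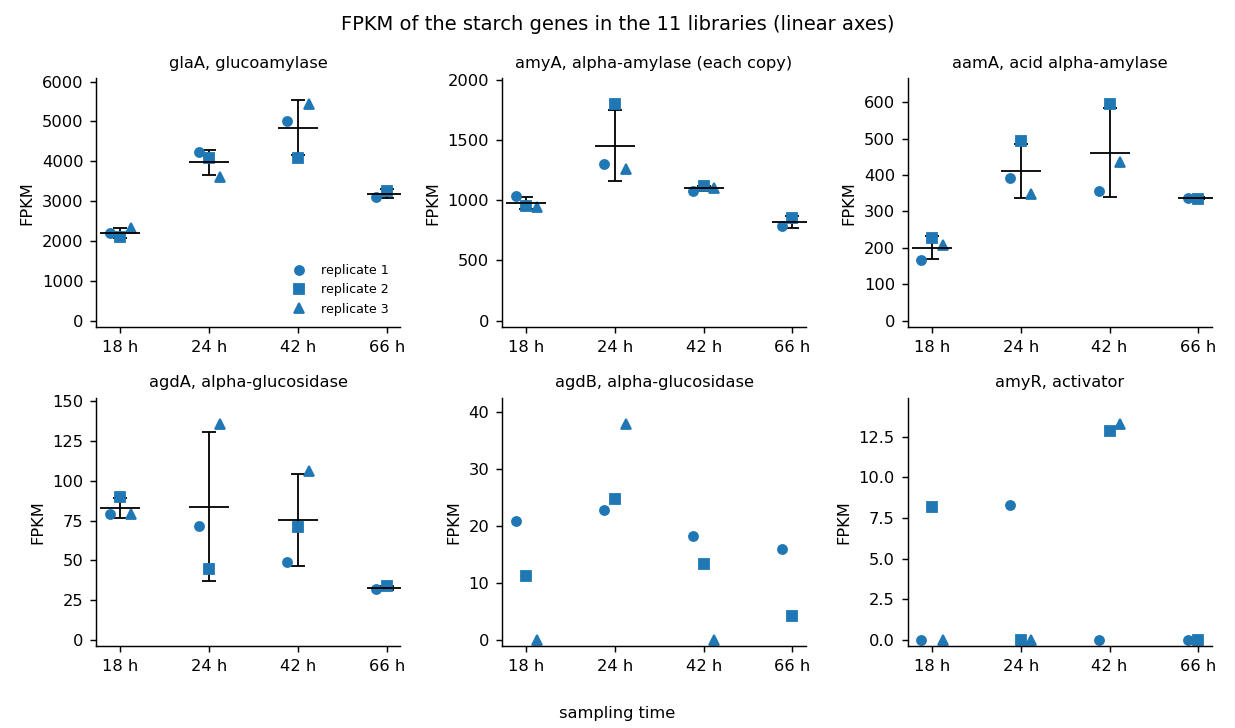
FPKM (vertical axes, linear, a scale per gene) of the 6 members at the 4 sampling times. Points are libraries, with the shape giving the replicate, and bars show the mean ± SD for the 4 genes that have reads in every library. The lowest glaA libraries are those of 18 h, at 2089 to 2325 FPKM, and both agdA libraries of 66 h lie at about 33 FPKM, below all others.

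The alpha-amylase genes had levels under that of glaA. Of these genes, aamA was higher at 42 h than at 18 h and amyA was lower at 66 h than at 24 h. Each amyA copy stood at 1035, 955 and 939 FPKM at 18 h, at 1302, 1795 and 1260.0 FPKM at 24 h, at 1078, 1119 and 1102 FPKM at 42 h, and at 786 and 852 FPKM at 66 h. The 24 h libraries were all above those of the other times. In FPKM without scaling between libraries, the 66 h libraries were below all others. The FPKM sum of a library was lower at 66 h (968822 and 969134) than at 18 h (1054732 to 1092072). Relative to these sums the order did not hold. On that scale, 66 h replicate 2 (852 of 969134) was above 18 h replicate 3 (939 of 1092072). The mean at 66 h was 819 ± 47.0 FPKM (n = 2), against 1453 ± 298 FPKM at 24 h (n = 3), with a limma log2 fold change of -0.81, SE 0.17 and adjusted p = 0.0183. It missed the threshold without the first (adjusted p = 0.153) or the second library of 66 h (0.0807), without a variance trend (0.421), with only the libraries of both groups (0.148), and with each of 3 scalings between libraries (0.0521 to 0.0767). At 24 h the log2 fold change of amyA over 18 h was 0.56 (SE 0.15, adjusted p = 0.137), at 42 h 0.17 (SE 0.15, adjusted p = 0.661) and at 66 h -0.25 (SE 0.17, adjusted p = 0.498; limma with Benjamini-Hochberg adjustment). The order of the means was 66 h, 18 h, 42 h and 24 h, and no neighbours in it differed in the test.

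The acid alpha-amylase gene aamA, named for an enzyme that works at low pH, was listed at 166, 228 and 208 FPKM at 18 h, at 393, 493 and 347 FPKM at 24 h, at 356, 595 and 436 FPKM at 42 h, and at 338 and 335 FPKM at 66 h. Its 18 h libraries, with 18 to 23 reads each, were below all libraries of the later times. The mean was 462 ± 122 FPKM at 42 h, against 201 ± 31.5 FPKM at 18 h (SD, n = 3 each), with a limma log2 fold change of 1.18, SE 0.25 and adjusted p = 0.0192. It missed the threshold without the first 18 h library (adjusted p = 0.0637), without the second of 42 h (0.0553), without a variance trend (0.208) and with only the libraries of both groups (0.0518). The differences of 24 h (log2 fold change 1.03, SE 0.25, adjusted p = 0.0879) and 66 h (0.75, SE 0.28, adjusted p = 0.166) from 18 h did not pass the limma test with Benjamini-Hochberg adjustment. The order of the means was 18 h, 66 h, 24 h and 42 h, as for glaA, and no neighbours in it differed in the test.

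Whether a member changed differently from glaA was tested on the log2 ratio of each gene to glaA within a library. Over the 4 times, the change of amyA differed from that of glaA (limma F test, Benjamini-Hochberg adjusted p = 0.0147), and it was the 1 member of 5 called, where 13.3% of all genes were. The ratio of glaA to both amyA copies was 1.06, 1.09 and 1.24 in the 18 h libraries, 1.62, 1.14 and 1.43 at 24 h, 2.32, 1.82 and 2.46 at 42 h, and 1.97 and 1.91 at 66 h. All 42 h and 66 h libraries lay above all 18 h and 24 h libraries. This ratio test called 1225 of 8692 genes at 42 h against 18 h, in either direction. It called 640 genes at 66 h against 18 h. Many genes other than amyA thus differed from glaA. At 42 h against 18 h, amyA moved 0.95 less than glaA in log2, a difference of -0.95 (95% interval -1.37 to -0.54, limma, Benjamini-Hochberg adjusted p = 0.00468). At 66 h against 18 h the difference was -0.78 (95% interval -1.25 to -0.32, limma adjusted p = 0.0423). It missed the threshold without any of the 18 h libraries, either library of 66 h, the third of 24 h or the first of 42 h (adjusted p 0.052 to 0.213). Without a variance trend neither call held (adjusted p = 0.197 at 42 h and 0.444 at 66 h). The F test call was lost likewise (adjusted p = 0.408) and without 18 h replicate 1 (0.0526). For aamA the difference from glaA was 0.05 at 42 h against 18 h (95% interval -0.61 to 0.72, limma, Benjamini-Hochberg adjusted p = 0.952). This interval leaves room for aamA to have changed by 0.61 less or 0.72 more than glaA in log2.

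The mix of enzyme transcripts was described by shares. Of the FPKM summed over the enzyme genes, with both amyA copies, the glaA share was 49.5% ± 2.0 for 18 h, 53.9% ± 4.1 for 24 h, 63.6% ± 4.6 for 42 h (SD, n = 3 each) and 61.2% ± 0.14 for 66 h (n = 2). Both amyA copies together made up 43.9% ± 2.0, 39.0% ± 4.1, 29.1% ± 2.6 and 31.5% ± 0.61 in the same order of times. The share of aamA was 4.5% ± 0.80, 5.5% ± 0.41, 6.2% ± 2.0 and 6.5% ± 0.29. The summed level was 4447 ± 104 FPKM at 18 h, 7398 ± 793 FPKM at 24 h, 7586 ± 592 FPKM at 42 h and 5197 ± 198 FPKM at 66 h. As a share of all FPKM of a library this was 0.42% (18 h), 0.68% (24 h), 0.77% (42 h) and 0.54% (66 h).

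**Figure D3:**
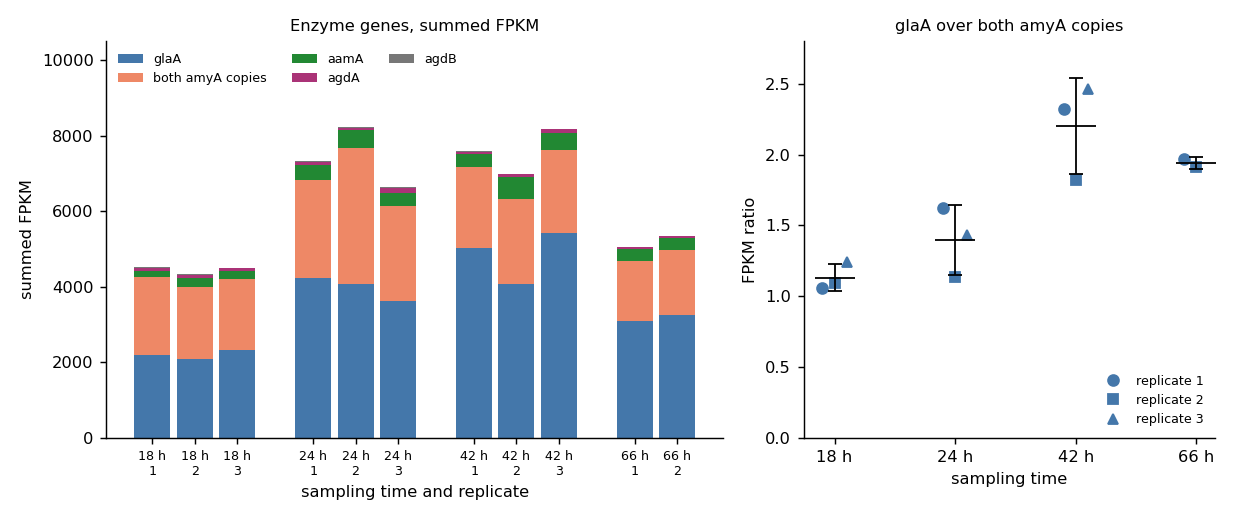
Left, FPKM of the enzyme genes stacked per library, with both amyA copies added. Right, the ratio of glaA to both amyA copies per library, with the mean ± SD. The stacks reach 4328 to 4523 FPKM at 18 h and 6990.3 to 8173 FPKM at 42 h, and the ratio averages 1.13, 1.40, 2.20 and 1.94 at 18, 24, 42 and 66 h.

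Both alpha-glucosidase genes were at lower levels. agdA stood at 79.4, 90.04 and 78.9 FPKM at 18 h, at 71.3, 44.4 and 136 FPKM at 24 h, at 49.0, 71.1 and 106 FPKM at 42 h, and at 32.05 and 33.8 FPKM at 66 h. The 66 h libraries, with 9 reads each, were below all others, while the other times overlapped. The level at 66 h was 32.9 ± 1.3 FPKM (n = 2), against 82.8 ± 6.3 FPKM at 18 h (n = 3), and the log2 fold change was -1.30 (SE 0.54, limma, Benjamini-Hochberg adjusted p = 0.222). It was called with only the libraries of both groups (adjusted p = 0.0419), and in no other setting of 22. Pooled over libraries, agdA had 18 reads or 33.0 FPKM at 66 h (exact 95% Poisson interval 19.5 to 52.1) and 50 reads or 82.8 FPKM at 18 h (61.4 to 109). These intervals cover counting error only. At 24 h and 42 h the differences from 18 h were -0.13 (95% interval -1.20 to 0.94) and -0.20 (-1.27 to 0.87) in log2, and changes within these intervals were not detectable here. The order of the agdA means in FPKM was 66 h, 42 h, 18 h and 24 h, and no neighbours in it differed in the test. On the log2 scale of the fit, 24 h stood below 18 h, since the FPKM mean of 24 h (83.8 ± 47.0) is carried by its library of 136 FPKM.

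agdB, whose product is known as a secreted alpha-glucosidase that can also transfer glucose units, was listed at 20.9, 11.2 and 0 FPKM at 18 h, at 22.8, 24.8 and 37.9 FPKM at 24 h, at 18.3, 13.3 and 0 FPKM at 42 h, and at 15.9 and 4.2 FPKM at 66 h. These are 0 to 6 reads a library. The 24 h libraries were the highest, and the other times overlapped. Its pooled level at 24 h was 28.3 FPKM (14 reads, exact 95% Poisson interval 15.5 to 47.5), against 11.1 FPKM at 18 h (6 reads, 4.07 to 24.1), and 10.5 FPKM at 42 h (7 reads, 4.24 to 21.7). The intervals overlap, and limma called agdB in none of the 6 comparisons.

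The activator gene amyR was at the limit of detection. It was listed at 8.16 FPKM in 18 h replicate 2, 8.30 FPKM in 24 h replicate 1, 12.9 FPKM in 42 h replicate 2 and 13.3 FPKM in 42 h replicate 3, and at 0 in the other 7 libraries. These values are 1, 1, 2 and 2 reads. A count of 0 allows up to 3 reads, which is 17.4 to 27.7 FPKM depending on the library, and the amyR values of all 11 libraries lie under that limit. Pooled over libraries, the exact 95% Poisson intervals were 0.0683 to 15 FPKM at 18 h, 0.0746 to 16.4 FPKM at 24 h, 2.39 to 22.5 FPKM at 42 h and 0 to 11 FPKM at 66 h. No difference in amyR between the times was detectable at this depth, and no fold change is given. Its neighbour in the gene order is agdA, which in every library stood above the highest amyR value.

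Across comparisons, few members passed the test over all genes. In the F test for any difference between the 4 times, glaA (adjusted p = 0.000782), aamA (0.0414) and amyA (0.0446) were called by limma with Benjamini-Hochberg adjustment, 3 of 6 members, where 8.03% of all 8693 genes tested were. The glaA call was kept without each library in turn. The aamA call held only without 24 h replicate 3 or 42 h replicate 1, and was lost without each of the other 9 libraries (adjusted p 0.0544 to 0.143). The amyA call held only without 24 h replicate 1 or replicate 3, and was lost without each of the other 9 (0.0671 to 0.133) and with each of 3 scalings between libraries (0.0811 to 0.128). All 6 members passed the filter on low values, amyR through 4 libraries of at most 2 reads.

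Read by comparison, 1 of 6 members rose at 24 h against 18 h (glaA), where 0.587% of all genes rose. At 42 h against 18 h, glaA and aamA rose, 2 of 6, where 2.99% of all genes did. At 66 h against 18 h, glaA rose, where 2.91% of all genes did, and at 66 h against 24 h, amyA fell, where 3.30% of all genes did. limma called 0 of 6 at 42 h against 24 h, where 4.66% of all genes were called, and 2 members had an unadjusted p under 0.05, as did 17% of all genes. At 66 h against 42 h it also called 0 of 6, where 0.426% of all genes were, and 2 members had an unadjusted p under 0.05, beside 6.56% of all genes. The median log2 fold change of the 6 members was 0.70 at 24 h and 0.65 at 42 h against 18 h, beside 0.04 and -0.01 over all genes, and 0.14 at 66 h against 18 h, beside 0. It was -0.94 at 66 h against 24 h and -0.51 at 66 h against 42 h, beside 0 over all genes in each. The value of -0.94 rests on agdB and amyR: over the 4 members with reads in every library, a choice made after seeing the data, it was -0.56, and for the other comparisons the median of these 4 was the same to 2 decimals. The comparisons against 18 h share the 18 h libraries.

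**Figure D4:**
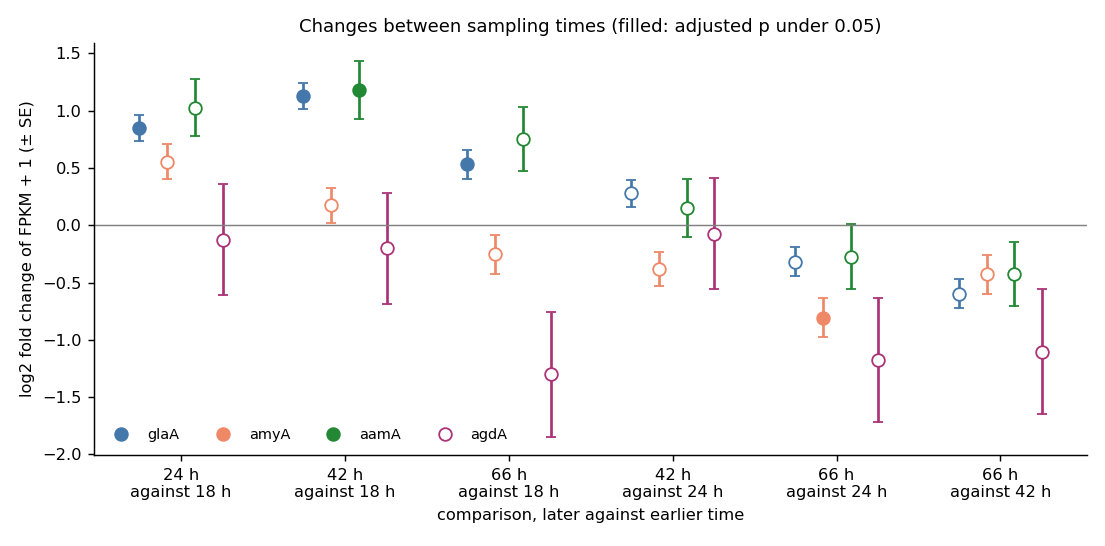
Log2 fold change of FPKM + 1 (vertical axis, ± SE) for glaA, amyA, aamA and agdA in the 6 comparisons (horizontal axis). Filled points passed the limma test at an adjusted p under 0.05. Against 18 h, glaA and aamA lie at 0.53 to 1.18, and at 66 h against 42 h all 4 genes lie under 0, between -1.10 and -0.43, with none called.

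Members were also counted by groups that do not overlap. At 24 h, glaA, amyA, aamA and agdB had all libraries above all 18 h libraries, 4 of 6 members, against 7.88% of all genes. At 42 h this held for glaA, amyA and aamA, 3 of 6 members, against 9.71% of all genes. At 66 h, glaA and aamA lay above all 18 h libraries, 2 of 6 members, against 14.7% of all genes, and amyA and agdA lay below them, 2 of 6 members, against 15.9%. At 42 h, amyA and agdB lay below all 24 h libraries, 2 of 6 members, against 11.4% of all genes. At 66 h, glaA, amyA, aamA, agdA and agdB had both libraries below all 24 h libraries, 5 of 6 members, against 15.7% of all genes. Both 66 h libraries of glaA, amyA, aamA and agdA were also below all 42 h libraries, 4 of 6 members, against 10.5% of all genes. The agdB values in these counts rest on 0 to 6 reads. All of these counts use FPKM without scaling between libraries. FPKM sums per library were lower at 66 h (968822 and 969134) than at 18 h (1054732 to 1092072) or 24 h (1072183 to 1100826). The shares over all genes were not recomputed on scaled values. Relative to its library's FPKM sum, glaA at 66 h replicate 2 (3259.8 of 969134) was above 24 h replicate 3 (3607 of 1085729). Both aamA libraries of 66 h were also above 24 h replicate 3 on that scale. For amyA, 66 h replicate 2 was above 18 h replicate 3. On that scale, glaA and aamA leave the count below 24 h, and amyA leaves the count below 18 h. The other members in those counts stay in them.

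Other genes of starch, maltose, glycogen and alpha-glucan metabolism, and the regulator gene creA, were sought by RefSeq symbol. Only 102 of the 10445 gene identifiers carry a symbol, and genes without one could not be found this way. The search found 1, creA (An02g03830), the repressor through which glucose shuts off genes for the use of other carbon sources. It was listed at 49.4 FPKM in 1 library of 18 h, 35.9 FPKM in 1 of 24 h, 19.2 and 38.4 FPKM in 2 of 42 h, 16.7 and 8.84 FPKM in both of 66 h, and at 0 in the other 5. These are 1 to 4 reads, and 16 in all. limma called creA in none of the 6 comparisons.

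Among 1329 genes with a mean of at least 100 FPKM, those most like each member over the 11 libraries were found by Pearson's r of log2(FPKM + 1), as a description. For glaA they were An12g07780 (r = 0.923), An07g07900 (0.921) and An13g00840 (0.917). For amyA they were An05g01070 (0.933), An15g07920 (0.902) and An04g01450 (0.887), each with its highest mean at 24 h. For aamA they were An11g01400 (0.903), An16g04510 (0.898) and An15g06550 (0.886), and for agdA An12g02100 (0.870), An12g09150 (0.833) and An01g00370 (0.789). The RefSeq table gives these loci no symbol. Between members, r was 0.83 for glaA and aamA, 0.44 for glaA and amyA, 0.46 for amyA and aamA, and -0.06 for glaA and agdA. These correlations share the libraries and their scaling. For agdB they were An17g02287 (0.861), An18g05810 (0.754) and An09g03090 (0.734), and for amyR An01g05750 (0.705), An07g02070 (0.680) and An07g06280 (0.613). With 32 reads for agdB and 6 for amyR, these last values are too thin to read.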

How the data were processed

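Total RNA came from broth frozen at once, and libraries followed Illumina's protocol, per the labels. The authors deposited FPKM per gene for 10445 genes and 11 libraries, made with RSEM per the submitters' processing notes. Aligner, build, annotation and RSEM version: not given in the sources used here. RSEM can share a read between alike transcripts, and no scaling between libraries is recorded. Symbols and gene order came from a RefSeq table of ASM285v2, to which 10417 identifiers matched.

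Relative depth was taken from the most frequent ratio of low values between libraries. A member's step is the largest value of which all its values are whole multiples within 0.1 read. No molecular identifiers are recorded, so intervals and limits cover counting error only.

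log2(FPKM + 1) was fitted with limma 3.58.1 (R 4.3.3) over all 11 libraries, with a mean per time and a variance trend, for genes of at least 1 FPKM in at least 2 libraries (8693). Fold changes refer to log2(FPKM + 1) and understate those of low genes. Adjusted p-values are Benjamini-Hochberg over all genes tested, called under 0.05. The model for change relative to glaA used each gene's log2 value minus that of glaA. The fit was tested on simulated data. Tables used numpy 2.4.6 and pandas 2.3.3; figures, matplotlib 3.10.9.

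The members, lists and rules were chosen with earlier results of these data known. The text names all members, the 3 genes most like each, and the genes next to them. A list of conidiation genes by symbol matched 0 genes, with symbols given for only 102 of the 10445 identifiers. Protein and promoter sequences were not used here. Alternatives were other pseudocounts, filters, scalings, weights and fits, and leaving out each library.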

Additional observations from a re-analysis of the deposited data

How the results depend on the processing

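The limma calls and fold changes of the members, and of the tested genes near them, were recomputed under 11 other settings and without each of the 11 libraries. The F tests have no version with only the libraries of both groups compared. Shares, FPKM ratios, group overlaps, Poisson intervals and correlations were computed once, without scaling between libraries. The orders of glaA, amyA and aamA named above were also set against library FPKM sums. Of the 6 members, the number called without a variance trend was 0 in the F test, at 24, 42 and 66 h against 18 h, at 66 h against 24 h, and for the change relative to glaA. With only the libraries of both groups compared it was 0 at 24 h against 18 h and at 66 h against 24 h, and 1 at 42 h against 18 h. At 66 h against 18 h it stayed at 1 there, but the gene was agdA in place of glaA. With libraries scaled to 1 common FPKM sum, with median-of-ratios scaling and with quantile normalization it was 0 at 66 h against 24 h, and with quantile normalization it was 1 at 42 h against 24 h. With vooma weights it was 0 at 66 h against 18 h, and without a filter it was 1 in the F test. With the replicate number as a block it was 0 at 66 h against 18 h and 1 in the F test, and it changed no other count by over 1.5 times. Same-numbered libraries did not deviate together (r -0.071 to 0.054 over 15 pairs and 2933 genes). These genes have means from 30 FPKM up, and counting error at few reads can hide a shared deviation. Whether the numbers pair the samples cannot be decided from this. Leaving out 1 library gave 1 to 3 members in the F test, 1 to 2 at 42 h against 18 h, and 0 to 1 at 66 h against 18 h, at 66 h against 24 h, at 66 h against 42 h and for the change relative to glaA. The cause of these changes was not tested. Directions turned for differences that had not been called: agdA at 42 h against 24 h was 0.07, 0.05 and 0.09 with the 3 scalings in the order above, and -0.45 to 0.35 without 1 library (0.35 without 24 h replicate 3, 0.20 without 42 h replicate 1). Without 1 library, agdA ranged over -0.55 to 0.25 at 24 h against 18 h (0.25 without 24 h replicate 2) and over -0.48 to 0.07 at 42 h against 18 h (0.07 without 42 h replicate 1), and aamA over -0.05 to 0.32 at 42 h against 24 h (-0.05 without 42 h replicate 2). The difference of aamA from glaA at 42 h against 18 h was -0.13 with quantile normalization and ranged over -0.26 to 0.26 without 1 library, and that of An03g06560 at 24 h against 18 h was -0.02 with median-of-ratios scaling. Of the other values for single genes, 81 lost a call, 4 gained one and 757 kept their direction and their side of the threshold. Depth limits agdB and amyR, whose fold changes enter only the medians over 6 members.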

Other observations

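The genes next to the members in the RefSeq gene order, taken by rule, did not share one pattern. None of those with FPKM values overlaps its member in that table. An12g06920, next to amyA, and An01g10940, next to agdB, have no FPKM values here, and their overlap was not checked. An11g03350, next to aamA, averaged 2668 ± 959 FPKM at 24 h, against 1209 ± 63.6 FPKM at 18 h (SD, n = 3 each), with a limma log2 fold change of 1.09, SE 0.19 and adjusted p = 0.018. This call was lost without replicate 1 (0.0522) or replicate 3 (0.0658) of 18 h, without a variance trend (0.394) and with only the libraries of both groups (0.199). At 42 h it stood at 7633 ± 338 FPKM (n = 3), with a limma log2 fold change over 18 h of 2.66, SE 0.19 and adjusted p = 2.27e-05, and at 66 h at 7290.1 ± 129 FPKM (n = 2). aamA itself was lower at 66 h than at 42 h in all libraries, while An11g03350 was at 7199 to 7382 FPKM at 66 h and at 7277 to 7950.0 FPKM at 42 h.

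An03g06560, next to glaA, averaged 27259 ± 1821 FPKM at 24 h and 26130.1 ± 1569 FPKM at 18 h (SD, n = 3 each), with a limma log2 fold change of 0.06, SE 0.06 and adjusted p = 0.751, in the comparison in which glaA rose by 0.85. It rose to 46160 FPKM at 42 h (log2 fold change over 18 h 0.82, limma adjusted p = 3.2e-05), where glaA rose by 1.13, and to 43714 FPKM at 66 h (0.74, limma adjusted p = 0.000177), where glaA rose by 0.53. Neither rise of An03g06560 was called without a variance trend (0.312 and 0.437), nor that at 66 h with only the libraries of both groups (0.0857). An03g06540, on the other side of glaA, was listed above 0 in 1 of 11 libraries. An04g06930, which follows agdA in the gene order, was listed above 0 in 3 libraries, all at 18 h or 66 h. An04g06900, which precedes amyR, was listed above 0 in 4 libraries. An01g10920, next to agdB, averaged 87.2, 119, 31.9 and 18.8 FPKM at 18, 24, 42 and 66 h. An11g03330, on the other side of aamA, was listed at 0 in all 18 h libraries and at 3.55 to 13.4 FPKM in the later ones. The reads behind these values were not recovered. For scale, 1 read of aamA was worth 7.04 to 11.2 FPKM, so the values are near the floor. Next to the amyA copies, An12g06940 averaged 127 to 176 FPKM over the times, An05g02090 51.7 to 83.6 FPKM and An05g02110 1.65 to 2.71 FPKM. The RefSeq table gives these loci no symbol.

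Beyond An04g06930, near agdA, lies An04g06940 (RefSeq symbol PrtT), known as the activator of secreted protease genes. This gene was added by name, outside the rule of 1 gene on either side. It was listed at 216, 343 and 243 FPKM at 18 h, at 154, 61.9 and 99.2 FPKM at 24 h, at 313, 322 and 371 FPKM at 42 h, and at 437 and 288 FPKM at 66 h. All 24 h libraries were below those of the other times. The share of all genes with such an order was not counted. Its level was higher at 42 h than at 24 h (limma log2 fold change 1.76, SE 0.35, adjusted p = 0.0162) and at 66 h than at 24 h (1.84, SE 0.39, adjusted p = 0.0195). Of all 8693 genes tested, 162 were called higher at 42 h and 194 at 66 h against 24 h. The difference of 24 h from 18 h, -1.41 (SE 0.35, adjusted p = 0.0951), did not pass, but did without replicate 1 of 24 h (0.0306). The call at 42 h was lost without replicate 2 or 3 of 24 h or of 42 h (0.0519 to 0.0643), and that at 66 h without replicate 3 of 24 h or either library of 66 h (0.0511 to 0.191) or in the fit blocked by replicate number (0.0539). Both were lost without a variance trend (0.135 and 0.137) and with only the libraries of both groups (0.0695 and 0.15).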
